A study of Rattus norvegicus with 7 samples.

Results

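The genes described here encode the amyloid precursor protein and its relatives (App, Aplp1 and Aplp2), enzymes that cut them (Bace1, Psen2 and Ncstn), the microtubule protein tau (Mapt) and beta-synuclein (Sncb). They were taken by symbol from the 15805 symbols that both deposited tables hold. All 8 were present in both and averaged at least 1 FPKM in each tissue. FPKM are fragments scaled by transcript length and by library size, a unit in which genes of different length can be compared.

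Transcript levels were measured by poly-A RNA sequencing in dissected hippocampus and hypothalamus of male Sprague Dawley rats. The rats were 2 months old when they were assigned to a diet, and all groups used here were fed DHA (docosahexaenoic acid, of the omega-3 class) for 6 weeks. There were 4 libraries of hippocampus (replicates 1 to 4) and 3 of hypothalamus (replicates 1 to 3). The series addresses the action of DHA on these regions. Animals on the chow diet without DHA were not analysed here, and the values below describe fed rats only, with no estimate of a diet effect. The labels do not say whether replicates were separate rats, nor whether both tissues came from the same rats.

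The amyloid precursor protein is a membrane protein of neurons and other cells. Alpha-secretases of the Adam family cut it within the amyloid-beta stretch, whereas the beta-secretase Bace1 cuts it at the start of that stretch, after which the gamma-secretase complex releases the peptide within the membrane. Gamma-secretase holds a presenilin, such as Psen2, as its catalytic subunit, together with nicastrin (Ncstn), an Aph1 protein and the presenilin enhancer Psenen. Aplp1 and Aplp2 share the overall build of App but lack the amyloid-beta stretch. Tau binds and stabilises axonal microtubules and is phosphorylated by kinases such as Cdk5 and Gsk3b. Beta-synuclein is a small protein of presynaptic terminals.

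Each tissue came in its own table. Summed FPKM were 370020 to 391349 in the hippocampus libraries and 443335 to 471484 in the hypothalamus libraries. Sequencing depth is unknown, so no counting interval can be given. Marker genes followed the labels: all 5 hippocampal markers present separated the tissues in favour of hippocampus, and all 8 hypothalamic markers in favour of hypothalamus. The choroid plexus markers stood apart within hippocampus, with a summed rescaled level of 97.4 in replicate 2 against 5966 to 17455 in the others (6 markers present, of which Otx2, named after its values were seen, was at 0 in all libraries). Without that library the counts of the 8 genes given below were the same. Replicate 1 of either tissue also stood apart in the spacing of its low values: the most common ratio held at most 2.75% of low loci in pairs with replicate 1, and at least 10.5% in the other pairs. Counts are therefore also given without replicate 1.

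Aplp1 and Sncb had the highest hypothalamic means of the 8 genes, and the sequence just upstream of each is shown for that reason. The bases are those of the RefSeq promoter window (assembly GRCr8) that lie outside the annotated gene, 155 for Aplp1 at chr1:94834706-94834860 on the minus strand and 141 for Sncb at chr17:9851684-9851824 on the plus strand. They are printed 5′ to 3′, with any GGGCGG or its reverse complement CCGCCC, a motif known as the GC box, in capitals.
Aplp1: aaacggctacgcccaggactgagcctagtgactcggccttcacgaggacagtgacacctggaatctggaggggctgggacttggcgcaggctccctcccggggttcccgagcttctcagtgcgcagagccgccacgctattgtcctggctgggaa
Sncb: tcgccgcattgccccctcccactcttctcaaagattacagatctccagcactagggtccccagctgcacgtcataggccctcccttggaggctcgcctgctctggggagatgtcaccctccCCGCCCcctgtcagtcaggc
The Sncb stretch holds 1 such motif and the Aplp1 stretch none on either strand. The first 140 bases of 16.1% of 27457 RefSeq promoter windows hold it, and 34.9% do so over 300 bases. G and C made up 63.9% of the Aplp1 stretch and 63.1% of the Sncb stretch. The median over the first 140 bases of all windows was 50%. The stretches of Bace1 and Ncstn, 250 bases each and not printed, hold no such motif and have 52% and 58.8% G and C. For App, Aplp2 and Psen2 the whole window lies within the annotated gene, and none of it is printed.

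App was the most abundant of the 8 genes in hippocampus. Its libraries read 762, 835, 794 and 781 FPKM in replicates 1 to 4, a mean of 793 ± 30.7 FPKM (SD, n = 4). In hypothalamus they read 608, 652 and 651 FPKM, a mean of 637 ± 25.2 FPKM (SD, n = 3). Every hippocampus library lay above every hypothalamus library. App ranked 39th among 16153 symbols in hippocampus and 76th among 16163 in hypothalamus.

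Aplp1, whose protein is found mainly in the nervous system, had the opposite direction. It read 492, 598, 532 and 403 FPKM in hippocampus, a mean of 507 ± 81.6 FPKM (SD, n = 4), and 834, 960 and 1212 FPKM in hypothalamus, a mean of 1002 ± 192 FPKM (SD, n = 3). The lowest hypothalamus library was above the highest hippocampus library. Its rank by mean was 72nd in hippocampus and 39th in hypothalamus.

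Aplp2, which is expressed in many tissues, went the way of App. It read 239, 299, 279 and 245 FPKM in hippocampus, a mean of 266 ± 28.5 FPKM (SD, n = 4). The hypothalamus libraries read 209, 170 and 156 FPKM, a mean of 178 ± 27.5 FPKM (SD, n = 3). The tissues did not overlap, and the highest hypothalamus library was replicate 1.

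**Figure D1:**
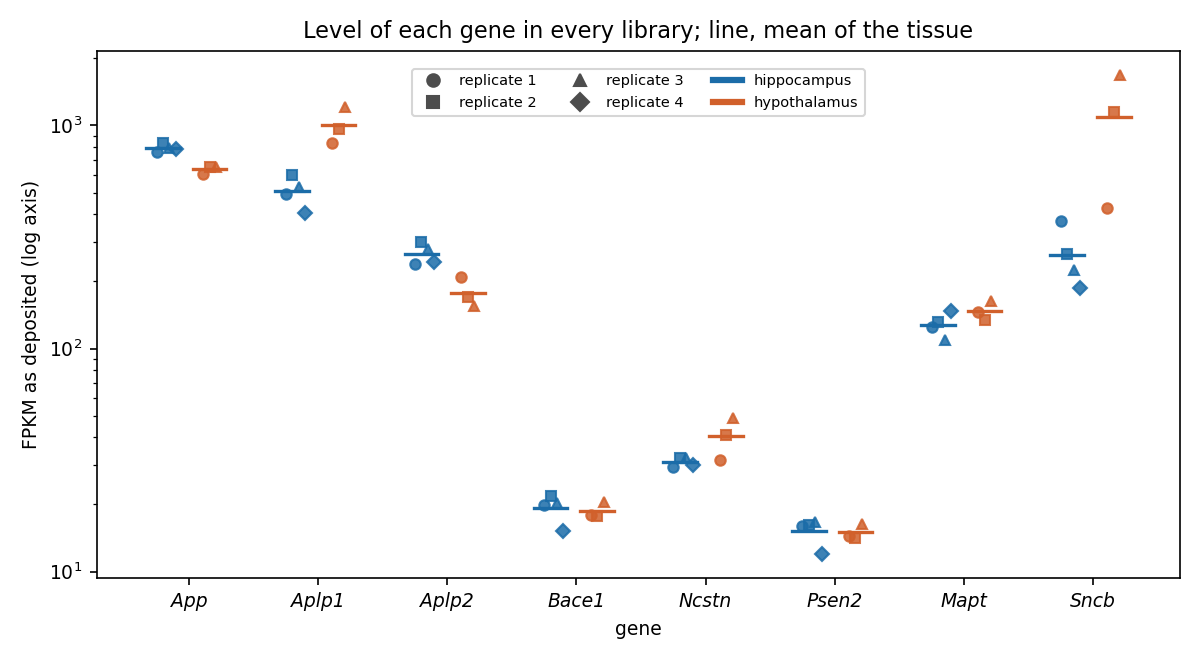
FPKM as deposited (log axis) of the 8 genes in the 4 hippocampus and 3 hypothalamus libraries, with a symbol for each replicate and a line at the mean of each tissue. App and Aplp2 sit higher in hippocampus, Aplp1 sits higher in hypothalamus, and Sncb has the widest spread, from 427 to 1689 FPKM within hypothalamus.

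The make-up of the App family differed between the tissues within each library, a quantity that does not depend on how a table was scaled. App took 48.2% to 54.7% of the summed FPKM of the 3 genes in hippocampus (mean 50.8% ± 2.80, SD, n = 4) and 32.3% to 36.8% in hypothalamus (mean 35.2% ± 2.58, SD, n = 3). Aplp1 took 32.2% ± 2.76 in hippocampus (SD, n = 4) and 54.8% ± 4.83 in hypothalamus (SD, n = 3). App was therefore the leading family transcript in all 4 hippocampus libraries and Aplp1 in all 3 hypothalamus libraries. The ratio of Aplp1 to App ran from 0.516 to 0.717 in hippocampus and from 1.37 to 1.86 in hypothalamus. Aplp2 to App ran from 0.314 to 0.359 in hippocampus and from 0.239 to 0.343 in hypothalamus, so that this ratio overlapped.

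**Figure D2:**
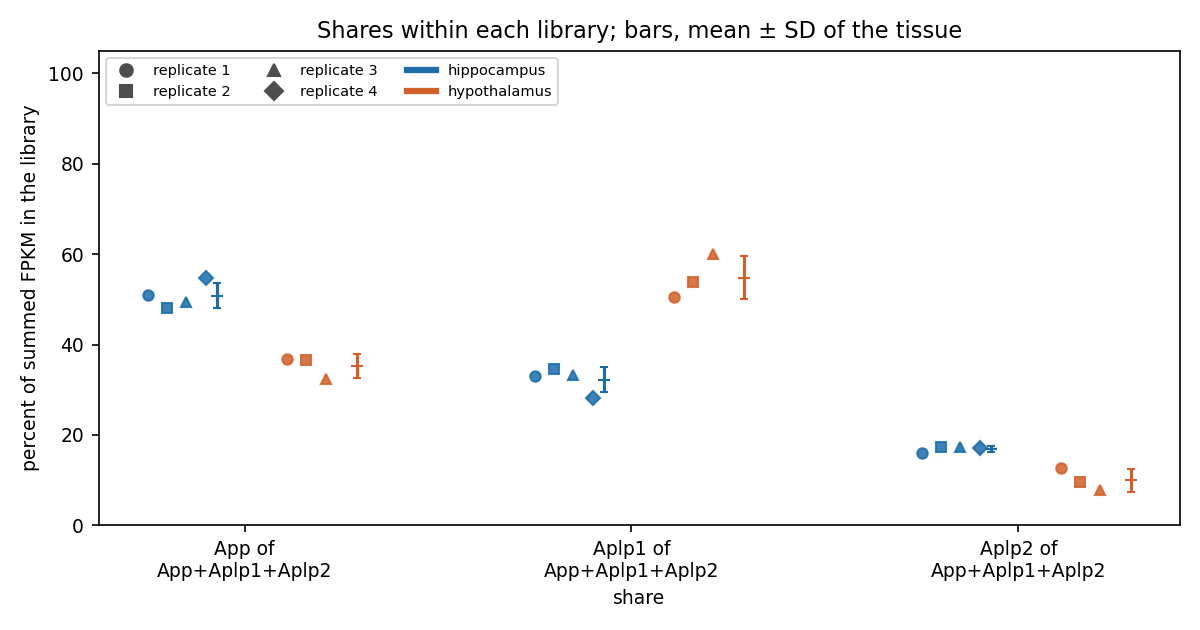
Percent of the summed FPKM of App, Aplp1 and Aplp2 that each gene takes within a library. Points are libraries and bars are mean ± SD of a tissue (n = 4 and n = 3). The shares of all 3 genes do not overlap between the tissues, App and Aplp2 being higher in hippocampus and Aplp1 in hypothalamus.

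The 3 secretase genes among the 8 were less abundant, and the libraries of each overlapped between the tissues. Psen2, a catalytic subunit of gamma-secretase, read 16.0, 16.2, 16.6 and 12.01 FPKM in hippocampus and 14.5, 14.2 and 16.3 FPKM in hypothalamus. The means were 15.2 ± 2.15 FPKM (SD, n = 4) and 15.0 ± 1.15 FPKM (SD, n = 3), and the libraries overlapped, with replicate 4 the lowest in hippocampus.

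Ncstn, the subunit that takes part in binding the substrate, had a higher mean than Psen2 and than either Bace1 locus taken alone. It read 29.6, 32.4, 32.5 and 29.9 FPKM in hippocampus, a mean of 31.1 ± 1.56 FPKM (SD, n = 4). Hypothalamus read 31.7, 41.0 and 48.9 FPKM, a mean of 40.5 ± 8.58 FPKM (SD, n = 3). The groups overlapped through replicate 1 of hypothalamus, which lay within the hippocampus range.

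Bace1, the beta-secretase, was the only one of the 8 symbols with more than 1 locus, and it had 2 in each table. Taking the locus with the highest mean, it read 19.8, 21.7, 20.2 and 15.3 FPKM in hippocampus, a mean of 19.3 ± 2.79 FPKM (SD, n = 4). In hypothalamus it read 18.0, 17.8 and 20.4 FPKM, a mean of 18.7 ± 1.45 FPKM (SD, n = 3). The tissues overlapped. These loci do not correspond, however: the hippocampal one stood among rows of plus-strand genes (16 of 18 neighbours with a known strand), the strand of Bace1, and the hypothalamic one among rows of minus-strand genes (21 of 23 neighbours).

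The other Bace1 locus was close in level. In hippocampus the locus among minus-strand genes read 11.1, 20.1, 16.9 and 21.1 FPKM. In hypothalamus the locus among plus-strand genes read 18.4, 15.2 and 14.0 FPKM. The share of the plus-strand locus in the sum of both was 42.0% to 64.0% in hippocampus and 40.7% to 50.6% in hypothalamus. With the plus-strand locus in both tables, a choice made after the data were seen, the rescaled difference was 0.56 in place of 0.32 on the log2(value + 1) scale, and the libraries still overlapped. With both loci summed, every hippocampus library was higher after rescaling. The summed FPKM as deposited overlapped, at 30.9 to 41.8 in hippocampus and 33.0 to 36.5 in hypothalamus. RefSeq places Rnf214 across the Bace1 gene, and how fragments were assigned by strand is not given in the sources used here, so the level of Bace1 is uncertain.

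**Figure D3:**
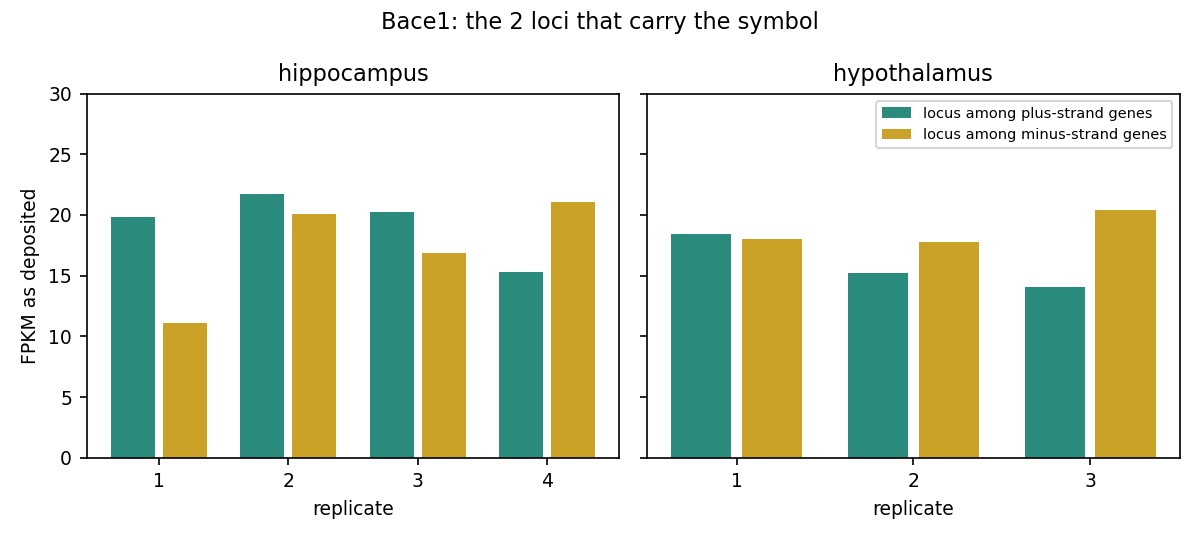
FPKM as deposited at the 2 loci that carry the symbol Bace1, for each replicate of hippocampus (left) and hypothalamus (right). The locus among minus-strand genes is lowest in hippocampus replicate 1, at 11.1 FPKM, and exceeds the other locus in hippocampus replicate 4 and in hypothalamus replicates 2 and 3.

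Mapt, the tau gene, was similar in level in the tissues. It read 124, 132, 109 and 147 FPKM in hippocampus, a mean of 128 ± 15.9 FPKM (SD, n = 4). Hypothalamus read 146, 135 and 163 FPKM, a mean of 148 ± 14.0 FPKM (SD, n = 3). The ranges overlapped, and Mapt stood above at least 96.7% of symbols in every library.

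Sncb, the beta-synuclein gene, had the largest difference of means and the widest spread. It read 373, 264, 225 and 187 FPKM in hippocampus, a mean of 262 ± 80.4 FPKM (SD, n = 4), with replicate 1 the highest. In hypothalamus it read 427, 1144 and 1689 FPKM, a mean of 1087 ± 633 FPKM (SD, n = 3), with replicate 1 the lowest. As deposited, the 3 hypothalamus libraries lay above the 4 hippocampus libraries. After rescaling, hypothalamus replicate 1 read 1017 and hippocampus replicate 1 read 1085, so that the groups overlapped at these 2 libraries alone.

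Sncg, the gamma-synuclein gene, named here after its values were seen, ranged from 2.14 to 32.7 FPKM in hippocampus and from 36.6 to 79.3 FPKM in hypothalamus. After rescaling its libraries overlapped, at 6.02 to 95.5 in hippocampus and 87.1 to 189 in hypothalamus.

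RefSeq also places Nfkbid across Aplp1, Eif4e1b across Sncb, and long non-coding RNAs across App and Mapt, and without a stated strand setting the levels of these 4 genes are uncertain to that extent. No other model lies across Aplp2, Psen2 or Ncstn. Within hippocampus the order of mean FPKM was App, Aplp1, Aplp2, Sncb, Mapt, Ncstn, Bace1 and Psen2. With both its loci summed, Bace1 averaged 36.6 FPKM and stood above Ncstn by mean. The libraries of these 2 then overlapped, at 30.9 to 41.8 FPKM for Bace1 and 29.6 to 32.5 FPKM for Ncstn. With the Bace1 locus of highest mean, libraries of neighbours overlapped for Aplp2 and Sncb and for Bace1 and Psen2. The other neighbours were then separate. Within hypothalamus the order was Sncb, Aplp1, App, Aplp2, Mapt, Ncstn, Bace1 and Psen2. With both loci summed, Bace1 averaged 34.6 FPKM there and stayed below Ncstn by mean. Their libraries overlapped, at 33.0 to 36.5 FPKM for Bace1 and 31.7 to 48.9 FPKM for Ncstn. With the Bace1 locus of highest mean, the overlapping neighbours were Sncb and Aplp1, and Aplp2 and Mapt.

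To compare the tissues across tables, values were rescaled so that the shared symbols of a library sum to 1000000. A gene was called for a tissue when its lowest library there exceeded its highest library in the other tissue. By this rule 2 of the 8 genes were higher in hippocampus, where 28.2% of 10736 compared symbols were, and 1 was higher in hypothalamus, where 24.4% were. Together 3 of the 8 separated the tissues, where 52.6% of all compared symbols did, so the share of called genes was no higher than the background. Its median difference was 0.19, beside 0.05 for all compared symbols, on the log2(value + 1) scale. None of the 3 called genes differed 2-fold on that scale, where 14.5% of symbols were called higher in hippocampus at that size and 13.4% in hypothalamus. Tissue and table cannot be told apart, and no test was made across the tables.

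App was higher in hippocampus by 0.61 (SE 0.04) on that scale, with rescaled means of 2280 and 1490. Aplp2 was higher there by 0.88 (SE 0.16), with means of 763 and 418. Aplp1 was lower in hippocampus, with a difference of -0.68 (SE 0.18) and means of 1456 and 2334. These 3 directions held without overlap under each of the 4 scalings tried and without any 1 library.

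Sncb differed by -1.59 (SE 0.61), with means of 755 and 2516, the largest difference among the 8 genes, but was not called because of the overlap described above. It was called higher in hypothalamus as deposited, where 35.2% of symbols were, and without replicate 1 of either tissue. Without replicate 1 of both tissues its difference was -2.33, and the tissues separated for 74% of symbols, 33.2% in favour of hypothalamus. As deposited the 8 genes thus divided into 2 higher in hippocampus (19% of symbols) and 2 higher in hypothalamus, 4 of 8 in all, where 54.2% of symbols separated in either direction.

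The other 4 genes overlapped after rescaling. Their differences were 0.32 (SE 0.11) for Bace1, 0.30 (SE 0.12) for Psen2, 0.09 (SE 0.10) for Mapt and -0.06 (SE 0.16) for Ncstn. In FPKM as deposited they were 0.03 for Bace1, 0.01 for Psen2, -0.21 for Mapt and -0.35 for Ncstn, so that Mapt changed sign. Ncstn was at 0.06 without hypothalamus replicate 3 and at 0.05 among symbols with a single locus. Ncstn was called higher in hypothalamus when replicate 1 of hypothalamus was left out, and Psen2 and Bace1 were called higher in hippocampus when replicate 4 of hippocampus was left out. Psen2 was also called there when symbols with several loci were left out before rescaling. Bace1 was also called higher there without hypothalamus replicate 3.

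**Figure D4:**
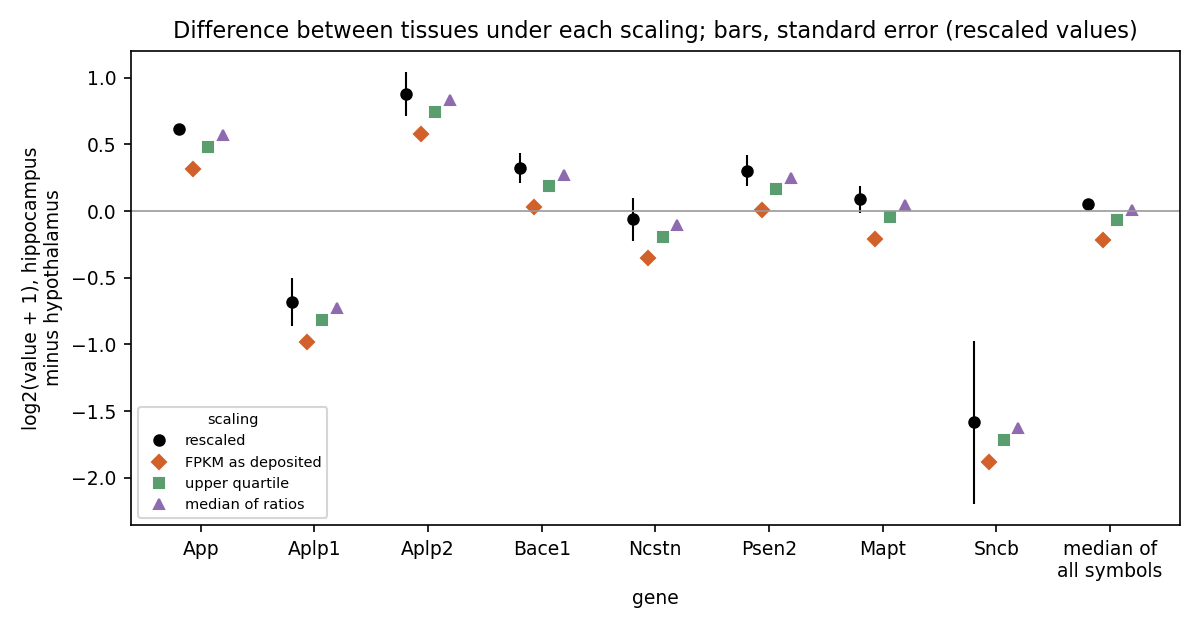
Difference of mean log2(value + 1), hippocampus minus hypothalamus, for the 8 genes under 4 scalings, with the median of all compared symbols at the right and bars for the standard error of the rescaled difference. App and Aplp2 lie above 0 and Aplp1 and Sncb below 0 under every scaling, Mapt runs from -0.21 to 0.09 and Ncstn from -0.35 to -0.06, and the scalings also move the median from 0.05 to -0.21.

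Markers of cell types were called at shares near the 52.6% of all symbols: 4 of 7 for neurons and for oligodendrocytes, and 3 of 6 for astrocytes and for microglia. The smaller endothelial list had 2 of 3 called, both higher in hippocampus (1 as deposited), and the choroid plexus list 0 of 5. The choroid plexus markers nevertheless had a median difference of 3.03. They summed to 97.4 in hippocampus replicate 2, up to 17455 in the other hippocampus libraries, and 76.7 to 166 in hypothalamus. The summed rescaled level of 7 neuron markers was 4333 to 5277 in hippocampus and 3098 to 3961 in hypothalamus. The hippocampus was higher for 3 of the 7 and the hypothalamus for 1 (background 28.2% and 24.4%), or 1 and 1 in FPKM as deposited. The 7 oligodendrocyte markers summed to 11852 to 14176 in hippocampus and 14499 to 19089 in hypothalamus, with 2 higher in each. The 6 astrocyte markers summed to 3637 to 4200 in hippocampus and 2547 to 3660 in hypothalamus, ranges that overlap. Of these, 1 was higher in hippocampus and 2 in hypothalamus (1 and 3 as deposited), with a median difference of -0.35. Slc1a2 had rescaled means of 1929 in hippocampus and 518 in hypothalamus. The 2 that went the other way were Aldh1l1 (43.4 and 111) and Aqp4 (252 and 579), the latter named after its values were seen. No marker of the neuron, oligodendrocyte and astrocyte lists was at 0. The neuron marker Nefl, named after its values were seen, was at 0.174 FPKM in its lowest hippocampus library, beside a median of 213 FPKM. The summed microglia markers overlapped, at 244 to 330 and 284 to 313, with 1 of 6 higher in hippocampus and 2 in hypothalamus (1 and 3 as deposited). The 3 endothelial markers summed to 223 to 363 in hippocampus and 107 to 165 in hypothalamus. The part of these shifts in the differences of App, Aplp1, Aplp2 and Sncb was not tested, and in bulk tissue fewer cells of a type cannot be told apart from less RNA per cell.

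The replicate spread set App and Sncb apart from each other. The SD of log2(FPKM + 1) of App was 0.06 in each tissue, and 2.17% of 10309 symbols in hippocampus and 4.51% of 10757 in hypothalamus had a lower SD. Ncstn was as even in hippocampus, with an SD of 0.07, but had an SD of 0.31 in hypothalamus. Sncb had an SD of 0.42 in hippocampus and 1.02 in hypothalamus, above 86.1% and 98.5% of symbols. The median over the 8 genes was 0.19 in hippocampus and 0.18 in hypothalamus, beside 0.23 and 0.25 for all symbols averaging at least 1 FPKM.

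The genes most like each of the 8 were taken as the 2 with the smallest root mean square difference between centred log2 profiles over the 7 libraries, among 6937 symbols with at least 5 FPKM in both tissues. Bace1 and Psen2 were each other's nearest gene, at a distance of 0.04, and both were lowest in hippocampus replicate 4. This distance rests on the locus with the highest mean in each table, and the other hippocampal Bace1 locus was highest in replicate 4. The next nearest were Srpk1 for Bace1 (0.06) and Pes1 for Psen2 (0.06). App was nearest to Mrpl42 (0.05) and Ubqln1 (0.05), the latter the gene of ubiquilin, and Aplp1 to Nrbp (0.09) and Cdh13 (0.09). Aplp2 was nearest to Lrrc28 (0.07) and Rpp14 (0.08), Ncstn to Nono (0.06) and Zc3h7b (0.06), and Mapt to Ubr2 (0.06) and Ylpm1 (0.09). Sncb had no gene as near: the closest were Phf1, at 0.18, and Foxp4, at 0.20. Phf1 read 9.56 to 16.2 FPKM in hippocampus and 22.0, 50.0 and 65.3 FPKM in hypothalamus. Its replicate 1 was the lowest in hypothalamus, as in Sncb, a likeness by which Phf1 was picked.

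The remaining genes of these pathways were examined through lists of named genes. Of 57 genes other than the 8, 52 were found in both tables and 51 were compared, of which 19 were higher in hippocampus and 9 in hypothalamus, beside 28.2% and 24.4% of all symbols. In FPKM as deposited the counts were 16 and 12, beside 19% and 35.2% of all symbols. These pairs of shares are also the background of the counts by list that follow. Without replicate 1 of both tissues the counts were 24 and 16 of 50, where 40.9% and 33.2% of all symbols were called. Among the 38 with a single locus in each table, the counts were 16 and 8, with no share of all symbols for that setting. The median difference of the 51 was 0.20, beside 0.05 for all symbols.

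Among the secretases, none of the 3 alpha-secretase genes separated the tissues. Adam10, the main alpha-secretase of neurons, named after its values were seen, read 17.5 to 32.7 FPKM in hippocampus and 14.6 to 22.2 FPKM in hypothalamus. Of 4 gamma-secretase genes compared, Aph1a was higher in hippocampus, at 29.2 ± 4.01 FPKM (SD, n = 4) against 20.1 ± 1.32 FPKM (SD, n = 3). Psenen was higher in hypothalamus and had the largest difference of the 4, at 44.3 ± 3.47 FPKM (SD, n = 4) in hippocampus and 249 ± 13.4 FPKM (SD, n = 3) in hypothalamus. The ratio of Psenen to Ncstn was 1.25 to 1.53 in hippocampus and 5.26 to 8.09 in hypothalamus, while Psen2 and Ncstn overlapped. Aph1b, named after its values were seen, was listed at 0 in all 7 libraries.

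Of 10 genes for App sorting and adaptors, 4 were higher in hippocampus and 2 in hypothalamus (background 28.2% and 24.4%), or 3 and 3 as deposited. Apba2, an adaptor that binds the App tail, read 90.1 ± 5.43 FPKM (SD, n = 4) in hippocampus and 30.1 ± 4.60 FPKM (SD, n = 3) in hypothalamus. Its relative Apba3 went the other way, at 2.74 ± 1.16 FPKM (SD, n = 4) in hippocampus and 10.8 ± 3.35 FPKM (SD, n = 3) in hypothalamus. Of 7 genes for amyloid-beta clearance, 4 were higher in hypothalamus and 1 in hippocampus (background 24.4% and 28.2%), or 4 and 0 as deposited. Apoe, which encodes the main lipid carrier of brain, read 777 ± 268 FPKM (SD, n = 4) in hippocampus and 3995 ± 720 FPKM (SD, n = 3) in hypothalamus. Ide, the insulin-degrading enzyme, was higher in hippocampus by 0.48 after rescaling, and its libraries overlapped in FPKM as deposited.

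Of 13 tau kinase and phosphatase genes, 8 were higher in hippocampus and none in hypothalamus (background 28.2% and 24.4%), with a median difference of 1.05 beside 0.05 for all symbols. In FPKM as deposited, Gsk3a of this list, named after its values were seen, was higher in hypothalamus. Cdk5r1, the activator of the tau kinase Cdk5, had the largest difference, at 150 ± 19.5 FPKM (SD, n = 4) in hippocampus and 30.5 ± 1.40 FPKM (SD, n = 3) in hypothalamus. Of the 7 genes for tau and other microtubule-associated proteins, Map4 was the only one called, at 198 ± 17.1 FPKM (SD, n = 4) in hippocampus against 116 ± 22.0 FPKM (SD, n = 3) in hypothalamus. Mapt itself overlapped between the tissues.

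**Figure D5:**
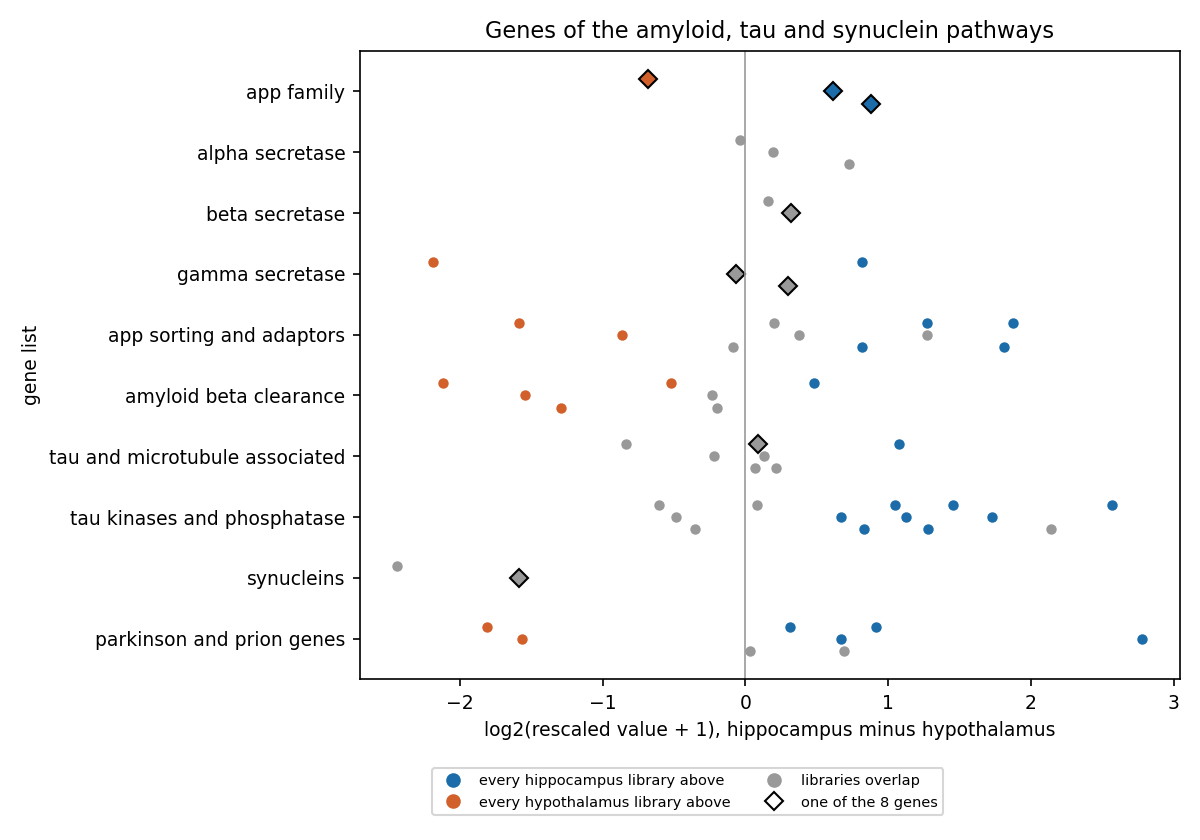
Difference of mean log2(rescaled value + 1), hippocampus minus hypothalamus, for the genes of 10 lists, with the 8 genes described here as outlined diamonds and colour for the tissue in which every library was higher. Tau kinase and phosphatase genes lie mostly to the right, with a median of 1.05, and amyloid-beta clearance genes mostly to the left, with a median of -0.52.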

How the data were processed

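The authors deposited FPKM values, a separate table for either tissue, each value with a status word. TopHat, TopHat2, Bowtie, Bowtie2, Cufflinks and Cuffdiff and the build rn5 are named in the submitters' processing notes, without roles or versions. The annotation, strand setting and library normalization are not given in the sources used here. The tables have 18087 and 17762 loci. Loci with a status other than OK were left out (86 in hippocampus, 24 in hypothalamus), and the locus with the highest mean was taken per symbol. Tables were joined by symbol, rescaled to a sum of 1000000 per library over shared symbols, and compared as log2(value + 1), which understates changes of low genes. Symbols averaging at least 1 FPKM in either tissue were compared.

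Because the tables were quantified separately, no test was made across them. Relative depth was sought in loci under 0.1 FPKM. No 2 libraries of a tissue shared more than 1 identical value above 0. RefSeq symbols of assembly GRCr8 matched 97.3% of symbols in each table. Strand of a locus was read from the genes in the 20 rows on either side. The 8 genes and the lists were chosen with earlier results of these data known. Named genes are the 8, the 2 most alike of each, and the called gene with the largest difference in each direction per pathway list. Of the marker lists, only called astrocyte genes, Nefl and Otx2 are named. Others are said to be named after their values were seen. Listed genes not found in both tables were not analysed here, and some planned gene results are not reported here. Alternatives were other scalings, pseudocounts of 0.1 and 5, other filters, summed or single loci, and leaving out libraries. Python 3.11.15, pandas 2.3.3 and numpy 2.4.6 were used.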

Additional observations from a re-analysis of the deposited data

Results flagged for a closer look

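Of 17 levels, shares and ratios examined in hippocampus, 2 had a single replicate far from the rest, its gap to the nearest value divided by the whole range passing the critical value of Dixon at 4 samples. Chance flags about 1 in 20 such groups, and these values share genes. Psen2 was lowest in replicate 4 (12.01 FPKM, against 16.0 to 16.6 FPKM in the others, ratio 0.863). The ratio of App to Bace1 was highest in replicate 4 (51.2, against 38.4 to 39.3 in the others, ratio 0.932), where Bace1 was lowest at the locus used. Its other locus was highest there, at 21.1 FPKM, and the sum of both was 36.4 FPKM in replicate 4 and lowest in replicate 1, at 30.9 FPKM.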

How the results depend on the processing

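The count of the 8 genes higher in hypothalamus was 1 and became 2 in FPKM as deposited, 2 without hippocampus replicate 1, and 3 without hypothalamus replicate 1 or without replicate 1 of both tissues. Over all settings that left out libraries it ranged from 1 to 3. The count higher in hippocampus ranged from 2 to 4 over the same settings, with 4 reached without hippocampus replicate 4. Leaving out a library also raises the share of all symbols called. It was 60.1% in either direction without hippocampus replicate 1, 58.1% without hippocampus replicate 4 and 66.2% without hypothalamus replicate 1. With all libraries it was 52.6%, and without replicate 1 of both 74%. The share higher in hypothalamus was 28.0% without hippocampus replicate 1, 29.4% without hypothalamus replicate 1 and 33.2% without replicate 1 of both. The share higher in hippocampus was 31.2% without hippocampus replicate 4. With all libraries these shares were 24.4% for hypothalamus and 28.2% for hippocampus. As deposited, 35.2% were higher in hypothalamus. The other pathway genes higher in hypothalamus ranged from 9 to 16 (of 50 or 51) over the settings that left out libraries. Over these settings 24.9% to 33.2% of all symbols were higher in hypothalamus. The count was 8 of 51 with median of ratios scaling and 8 of 38 with single loci, without a share of all symbols for either. The median SD of the 8 genes ranged from 0.108 to 0.231 in hippocampus, lowest without replicate 4, and from 0.112 to 0.209 in hypothalamus, lowest without replicate 3; the causes were not tested. All 22 alternative values of the shares of App and Aplp1 stayed within 1 SD. App ranged from 0.31 to 0.73 on the log2 scale, Aplp2 from 0.58 to 1.05, Aplp1 from -0.98 to -0.56 and Sncb from -2.33 to -1.19. The tissues share replicate numbers 1 to 3, which the labels do not tie to the same rats. With the number as a replicate block, added after the data were seen and with no test, the mean of the same-numbered rescaled differences was 0.62 for App, -0.58 for Aplp1, 0.92 for Aplp2, 0.43 for Bace1, 0.41 for Psen2, -0.04 for Ncstn, 0.02 for Mapt and -1.44 for Sncb. The 3 differences were all positive for App, Aplp2, Bace1 and Psen2, all negative for Aplp1, and mixed for the others. Depth is unknown, which limits the lowest genes most, and 4 and 3 libraries limit the precision of every mean.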

Other observations

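Genes linked to Parkinson's disease and prions were called in both directions. Of 8 compared, 4 were higher in hippocampus and 2 in hypothalamus, where 28.2% and 24.4% of all symbols were. In FPKM as deposited the counts were 3 and 2, beside 19% and 35.2%. Lrrk2, a kinase gene mutated in familial Parkinson's disease, read 11.6 ± 1.76 FPKM (SD, n = 4) in hippocampus and 1.74 ± 0.553 FPKM (SD, n = 3) in hypothalamus, a difference of 2.78 on the log2 scale after rescaling. Park7, which encodes the redox-sensing protein DJ-1, read 145 ± 23.3 FPKM (SD, n = 4) in hippocampus and 621 ± 42.1 FPKM (SD, n = 3) in hypothalamus, a difference of -1.81. Uchl1, a neuronal ubiquitin hydrolase gene named after its values were seen, was the other one higher in hypothalamus, at 664 ± 130 FPKM against 2418 ± 493 FPKM (SD, n = 4 and n = 3).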
